A study of Mus musculus with 2 samples.

Results

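The respiratory chain genes of mouse prefrontal cortex microglia are described here, from the mitochondrial and the nuclear genome side by side. Members were chosen by gene symbol: the protein-coding genes of mitochondrial DNA (mt-Nd, mt-Co, mt-Atp and mt-Cytb) and the nuclear families Ndufa, Ndufb, Ndufc, Ndufs, Ndufv, Sdha to Sdhd, Uqcr, Cox4 to Cox8 and Atp5, with symbols ending in -ps left out. The rule took 111 of the 32589 features in the files. Of these, 13 are mitochondrial mRNAs, 85 are rows of nuclear subunits and 13 are assembly or supercomplex factors that carry a matching symbol. Atp5o fills 2 of the nuclear rows, under 2 identifiers whose loci overlap, so how its reads were divided between them is uncertain.

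The cells came from C57BL/6 mice given vehicle or, by oral gavage, corticosterone, the main glucocorticoid of rodents. They were freed from the cortex with an enzyme at 37 °C, sorted as CD45-low and CD11b-positive, and sequenced as 1 single-cell library per group. The dose, the duration, the age and sex of the mice and the number of mice per library were not given in the sources used here. With 1 library per group nothing could be tested between treatments: each interval below is a 95% interval of counting error alone, and treatment and library cannot be told apart.

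The respiratory chain passes electrons from NADH and succinate to oxygen through complexes I to IV of the inner mitochondrial membrane, and complex V, the ATP synthase, uses the resulting proton gradient to make ATP. Complexes I, III, IV and V are built from subunits of both genomes, whereas all subunits of complex II are nuclear. Mitochondrial mRNAs are cut from long transcripts that span most of the circular genome, while each nuclear subunit has a promoter of its own.

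After filtering, 10500 vehicle and 17883 corticosterone cells remained, with a median of 3220.5 and 3961 unique molecular identifiers (UMIs, each marking 1 captured transcript) per cell. Microglia-like cells numbered 7892 with vehicle and 15221 with corticosterone, with summed depths of 32020453 and 71090350 UMIs. All 10 microglia markers, among them Tmem119 and P2ry12, stood above 20 CPM (UMIs per 1000000 UMIs of the class) in both libraries, whereas the 9 markers of border-associated macrophages summed to 83.9 and 42.7 CPM. Different clusters held most of the class in each library: cluster 1 held 7300 of the vehicle cells, and clusters 0 and 2 held 11486 and 2807 of the corticosterone cells. The libraries shared 104 cell barcodes, and leaving these out changed the direction of no result named here.

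In microglia-like cells the mitochondrial mRNAs took a larger share of all UMIs with corticosterone, and the nuclear subunits moved much less. The 13 mitochondrial mRNAs made up 3.00% of UMIs with vehicle and 4.30% with corticosterone, a log2 ratio of 0.52 (0.517 to 0.524) or 1.43-fold. Nuclear subunits together made up 0.894% and 0.983%, a log2 ratio of 0.14 (0.131 to 0.143) or 1.10-fold. The number of mitochondrial mRNA UMIs per nuclear subunit UMI was therefore 3.35 with vehicle and 4.38 with corticosterone. Per cell, the mean was 122 and 201 mitochondrial mRNA UMIs and 36.3 and 45.9 nuclear subunit UMIs. Other measures moved alongside: cytosolic ribosomal proteins had a log2 ratio of 0.24, and Malat1, a long RNA retained in the nucleus, stood at 5067 CPM with vehicle and 2696 CPM with corticosterone. Whether either has a part in the result was not tested.

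Overlapping genes show how the mitochondrial genome is packed and where counting can be ambiguous. mt-Atp8 and mt-Atp6, the subunits of the membrane part of ATP synthase made in the mitochondrion, share 43 bases at chrM:7927-7969 on the + strand (GRCm38, GENCODE M21 transcripts). Capitals mark the start codon of mt-Atp6 and the stop codon of mt-Atp8.
mt-Atp8/mt-Atp6 overlap: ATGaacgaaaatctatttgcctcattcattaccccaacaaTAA
mt-Nd4l and mt-Nd4 share 7 bases, mt-Atp6 and mt-Co3 share 1 base, and mt-Nd5 and mt-Nd6 share 14 bases on opposite strands. How the counting program treated reads over these bases was not given in the sources used here.

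Complex I is the entry point for electrons from NADH, and its mitochondrial members are the subunits of the proton-pumping membrane arm. mt-Nd1 stood at 3184 CPM with vehicle and 4609 CPM with corticosterone, a log2 ratio of 0.53. mt-Nd4 followed with 2507 and 3498 CPM (0.48), and mt-Nd5 with 1672 and 2186 CPM (0.39). mt-Nd4l, which lies on the same mRNA as mt-Nd4, had 365 and 466 CPM (0.35). These 4 were all at least 25% higher with corticosterone.

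The remaining mt-Nd genes differed from that pattern. mt-Nd2 had 1231 CPM with vehicle and 1302 CPM with corticosterone, a log2 ratio of 0.08 (0.064 to 0.098), which was -0.11 within cluster 2 alone. mt-Nd3 had 871 and 841 CPM, a log2 ratio of -0.05 (-0.071 to -0.030), which became 0.04 with edgeR's TMM factors, 0.06 with DESeq2's size factors and 0.01 with each cell weighted equally. Both were thus close to level while their neighbours on the genome were higher. mt-Nd6, the only member read from the other strand, was sparse at 11.3 and 15.2 CPM (log2 ratio 0.43, 0.253 to 0.602).

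The other mitochondrial mRNAs were all higher with corticosterone. mt-Cytb, the cytochrome b of complex III, had 3068 and 4879 CPM (log2 ratio 0.67). Complex IV reduces oxygen. Its mitochondrial core subunits had 5177 and 7662 CPM for mt-Co1 (0.57), 3073 and 4545 CPM for mt-Co2 (0.56) and 4927 and 6709 CPM for mt-Co3 (0.45). mt-Atp6, which forms the proton channel of ATP synthase, had 3732 and 6104 CPM (0.71), the highest ratio of the 13. mt-Atp8, on the same mRNA and sharing the bases printed above, had 160 and 193 CPM (0.27, 0.226 to 0.318, and -0.05 within cluster 2 alone).

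Over all 13 mitochondrial mRNAs the median log2 ratio was 0.45, 12 were higher, and 10 were at least 25% higher. Among all genes with a mean of at least 20 CPM, 14.8% were that much higher, 13.7% were lower by the same fold (20% lower), and the median log2 ratio was 0.00. At 1.5-fold, mt-Atp6 and mt-Cytb were higher and 0 mitochondrial mRNAs were lower, against 5.36% higher and 4.80% lower among all genes.

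**Figure D1:**
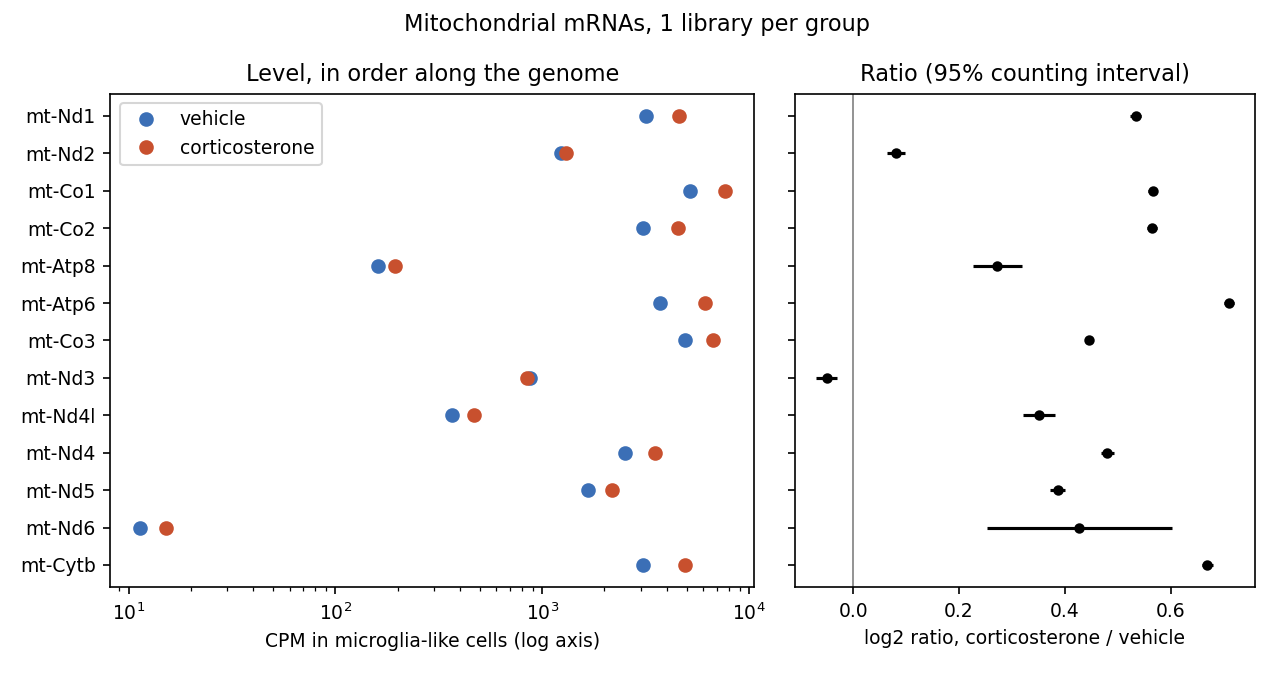
Level of each mitochondrial mRNA in microglia-like cells (left, CPM on a log axis, 1 point per library) and its log2 ratio with a 95% counting interval (right), in order along the genome. The ratio runs from 0.71 for mt-Atp6 to -0.05 for mt-Nd3, and mt-Nd3 lies at 0.04 when TMM factors set the scale.

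Nuclear subunits were evaluated where the mean over both libraries reached 20 CPM, which 76 of 85 rows did. Their median log2 ratio was 0.11. With corticosterone 54 were higher and 22 lower, against 3306 higher and 3300 lower among all genes. At least 25% higher were 6, which is 7.89% of the 76 beside the 14.8% of all genes, and 0 were lower by the same fold, beside 13.7%. Beside all genes, the nuclear subunits thus leaned to one side by small amounts, with no allowance made for their shorter annotated mRNAs. When 6523 of all genes were split by that length, the shorter part had a median log2 ratio of 0.05, also above 0.00. The count of 6 became 14 with TMM factors and 16 with DESeq2 factors, which moved the median of all genes to 0.09 and 0.11 as well. Within cluster 0 or cluster 1 alone the nuclear median was -0.01 and 0.01, while that of the mitochondrial mRNAs was 0.43 and 0.35. In cluster 2 alone the nuclear median was 0.11 and the mitochondrial 0.43, with 21 nuclear subunits at least 25% higher and 3 lower by the same fold; these counts were 6 and 5 in cluster 0, and 3 and 1 in cluster 1. The smaller sides of clusters 0, 1 and 2 hold 263 vehicle, 293 corticosterone and 266 vehicle cells. The shares of all genes past the same folds are not given within these clusters or with these factors. The counts there are therefore not read as a result about the subunits.

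Complex I had 36 nuclear subunits past the filter, with a median log2 ratio of 0.09. All 7 core subunits, which carry the flavin and the iron-sulphur clusters, were higher, between 0.08 for Ndufv1 and 0.17 for Ndufs8. Of 29 accessory subunits 17 were higher. Ndufa9, an accessory subunit at the joint between the arms of the complex, had 93.4 CPM with vehicle and 122 CPM with corticosterone (0.38, 0.323 to 0.444). Ndufb8, of the membrane arm, had 96.7 and 120 CPM (0.31). At the other end, Ndufa5 had 44.9 and 40.9 CPM (-0.13) and Ndufa2 had 118 and 109 CPM (-0.12).

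Complex II, succinate dehydrogenase, also serves the tricarboxylic acid cycle. Its catalytic subunits Sdha, with 95.2 and 105 CPM, and Sdhb, with 137 and 153 CPM, each had a log2 ratio of 0.15. Within single clusters Sdha turned to -0.09 in cluster 0 and -0.02 in cluster 2, and Sdhb to -0.05 in cluster 2. The membrane anchors split, with 87.8 and 83.7 CPM for Sdhc (-0.07) and 88.8 and 96.4 CPM for Sdhd (0.12). Sdhc turned to 0.02 with TMM factors and 0.04 with DESeq2 factors.

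Complex III passes electrons from ubiquinol to cytochrome c. Its core subunit Uqcrc1 had 117 and 157 CPM (0.43, 0.376 to 0.484), and Uqcrc2 had 97.6 and 114 CPM (0.22). The small accessory subunits Uqcr10, with 80.4 and 80.2 CPM, and Uqcrq, with 105 CPM in both libraries, were level at a log2 ratio of 0.00, and 0.09 each with TMM factors.

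Complex IV, cytochrome c oxidase, had 11 of its 19 nuclear rows past the filter, with a median of 0.16. The highest were Cox5a, with 119 and 146 CPM (0.30), and Cox6a1, with 229 and 272 CPM (0.24). The lowest were Cox7c, with 213 and 207 CPM (-0.05, turning to 0.04 with TMM factors and 0.06 with DESeq2 factors), and Cox6c, with 142 and 138 CPM (-0.03, turning to 0.06 and 0.08 with the same factors).

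In complex V the values are given by the place of the subunit. All 5 subunits of the catalytic F1 part were higher, with a median of 0.32. Its catalytic beta subunit Atp5b had 249 CPM with vehicle and 378 CPM with corticosterone (0.60, 0.565 to 0.637), the highest ratio of any nuclear subunit past the filter. The delta subunit Atp5d had 150 and 189 CPM (0.34) and the alpha subunit Atp5a1 had 252 and 315 CPM (0.32). Atp5o, part of the stalk that holds it in place, had 78.4 and 104 CPM in its main row (0.41), and of the 4 stalk subunits past the filter 3 were higher and 1, Atp5j, was lower at -0.04. The proton-carrying c ring was higher in all 3 of its genes, at 0.22 for Atp5g1, 0.09 for Atp5g2 and 0.24 for Atp5g3, although Atp5g2 was lower within each of clusters 0, 1 and 2 alone (-0.09, -0.05 and -0.04) and Atp5g3 was lower within cluster 0 (-0.28). Of 5 small membrane subunits, 1 was higher, and Atp5md, with 80.2 and 71.1 CPM (-0.17), and Atp5k, with 45.9 and 42.0 CPM (-0.13), were the lowest of the complex. Within cluster 2 alone these stood at 0.31 and 0.04. This grouping by place was written after the values had been seen.

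**Figure D2:**
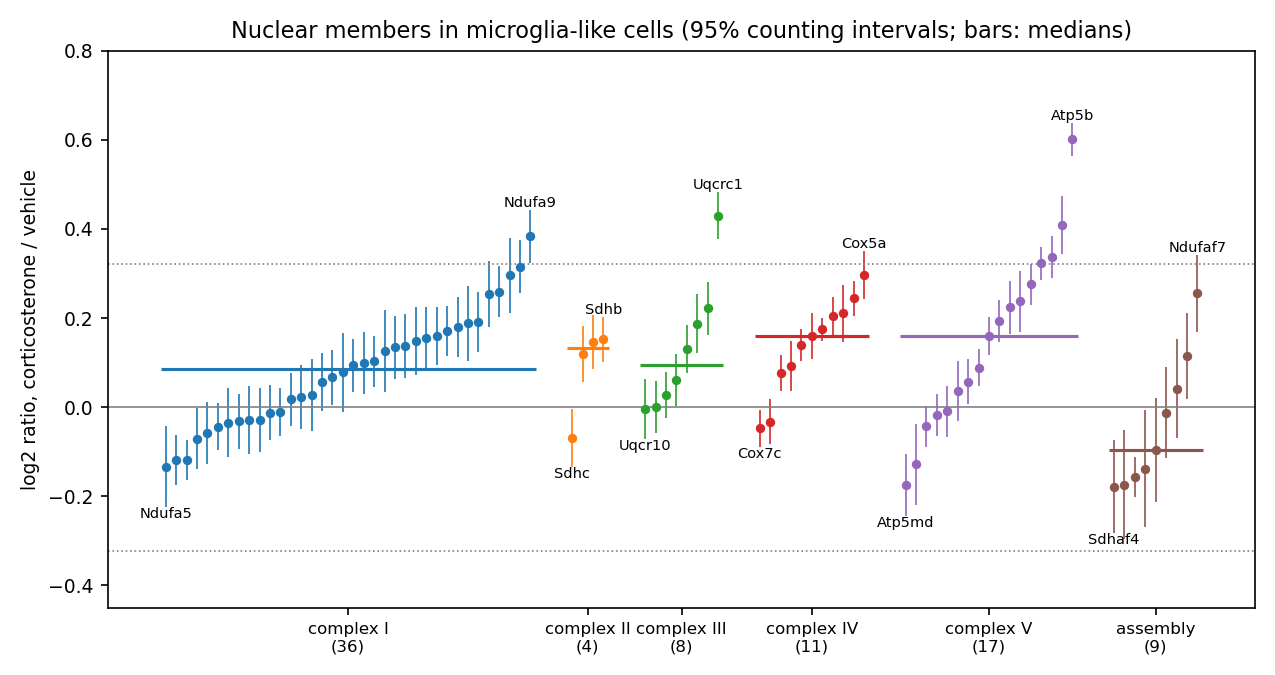
Log2 ratio of corticosterone over vehicle for each nuclear member past the filter in microglia-like cells, by complex, with 95% counting intervals, medians as bars and 25% higher or 20% lower as dotted lines. Most points lie between the dotted lines, and Atp5b at 0.60 and Uqcrc1 at 0.43 stand highest.

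Assembly factors taken by the symbol rule had 9 members past the filter, of which 3 were higher and 6 lower, with a median of -0.10, beside 3306 higher and 3300 lower among all genes. Whether they differ from the subunits was not tested. Ndufaf7, which methylates a complex I subunit, had 46.4 and 55.4 CPM (0.26), and Ndufaf3 had 39.0 and 42.3 CPM (0.11). The complex II assembly factors Sdhaf1 and Sdhaf4 had log2 ratios of -0.17 and -0.18. Each of these 4 had the opposite sign in at least 1 of clusters 0, 1 and 2: Ndufaf7 to -0.14 in cluster 1 and -0.08 in cluster 2, Ndufaf3 to -0.67 in cluster 2, Sdhaf1 to 0.18 in cluster 1 and Sdhaf4 to 0.65 in cluster 2. Cox7a2l, a factor that joins complexes III and IV into supercomplexes, had 194 and 174 CPM (-0.16).

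Set beside each other per complex, the mitochondrial sums had the larger ratio in every complex that has both genomes. The mitochondrial and nuclear log2 ratios were 0.39 and 0.08 in complex I, 0.67 and 0.14 in complex III, 0.52 and 0.15 in complex IV, and 0.69 and 0.20 in complex V. Complex II, with no mitochondrial member, had 0.10. The symbol rule does not take Cyc1, the cytochrome c1 subunit of complex III, so the nuclear side of complex III is incomplete here. The mitochondrial UMIs per nuclear UMI went from 3.26 with vehicle to 4.05 with corticosterone in complex I, from 3.63 to 5.24 in complex III, from 5.89 to 7.64 in complex IV and from 1.60 to 2.26 in complex V. The order of the complexes was thus similar for both genomes, with complex V highest and complex I lowest.

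Among the nuclear subunits the log2 ratio went with the annotated mRNA length, taken as the median over the protein-coding transcripts listed for a gene. Which of these transcripts the cells carry was not determined, so this length can be far from that of the mRNA counted. Across the 76 subunits Pearson's r between the log2 ratio and the log2 of the median annotated mRNA length was 0.46, and across 6523 genes of the same filter it was -0.12. Genes are not independent replicates and share both libraries, so these are descriptions. The median log2 ratio was 0.05 in the shorter part of the subunits and 0.16 in the longer part. Across the 6523 genes it was 0.05 in the shorter part and -0.04 in the longer part. The median mRNA length was 655 bases for the subunits and 2032.5 bases for those genes. Whether length has a part in the higher median of the subunits was not tested.

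Isoforms that replace a ubiquitous subunit in muscle, lung or testis were at or near 0. Cox4i2 and Cox7a1 stayed under 1 CPM in both libraries, Cox6b2 had 2.25 and 3.28 CPM, and Ndufa4l2 had 2 and 0 UMIs. Cox7b2, Cox8b and Cox8c had 0 UMIs; 3 counts, taken as the limit that a count of 0 allows, correspond to 0.0937 CPM with vehicle and 0.0422 CPM with corticosterone. Cox6a2, the heart and muscle form of subunit VIa, was the exception: 220 UMIs or 6.87 CPM (5.99 to 7.84) with vehicle and 1051 UMIs or 14.8 CPM (13.9 to 15.7) with corticosterone, a log2 ratio of 1.11. It was below the filter and far below its ubiquitous partner Cox6a1. In border-associated macrophage-like cells Cox6a2 had 5.49 and 14.6 CPM.

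The cell classes were formed without respiratory chain genes among the clustering genes. Border-associated macrophage-like cells, with 1069 vehicle and 796 corticosterone cells, had 4.07% and 4.73% of UMIs in mitochondrial mRNAs, a log2 ratio of 0.22, and 1.01% and 1.17% in nuclear subunits, a log2 ratio of 0.20. Summed over the complexes, mitochondrial UMIs per nuclear UMI were 4.02 and 4.05, whereas in microglia-like cells that quotient was 3.35 and 4.38. The complexes went different ways in these macrophages: the quotient was 3.66 and 3.56 in complex I, 4.27 and 4.83 in complex III, 6.81 and 6.65 in complex IV, and 2.24 and 2.38 in complex V. In these macrophages 66 of 76 nuclear subunits were higher, or 86.8%, beside 52.4% of all genes. At least 25% higher were 9, or 11.8%, beside 17.0% of all genes, and 0 were lower by the same fold, beside 13.9%. Atp5b was again high, at 0.52, and Uqcrc1 was at 0.43. Whether the classes differ was not tested. For each class, the level of microglia markers relative to microglia-like cells is the median over Sall1, P2ry12, Tmem119 and Siglech. In these macrophages it was 0.820 and 0.652, so the classes are not cleanly apart in RNA.

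Neutrophil-like cells, 196 and 273 in number, had a lower summed mitochondrial share with corticosterone. Mitochondrial mRNAs made up 2.99% and 2.82% of their UMIs, and the median cell had 1.55% and 0.624%. By complex the mitochondrial log2 ratio was -0.24 in complex I, -0.06 in complex IV, 0.03 in complex III (-0.039 to 0.092) and 0.09 in complex V, where mt-Atp6 was at 0.11. Nuclear subunits made up 0.887% and 0.949%. The share of cells under 1% mitochondrial mRNA was 34.2% (27.6 to 41.3) with vehicle and 58.6% (52.5 to 64.5) with corticosterone. Microglia markers stood at 0.703 and 0.536 of their microglia-like level in this class, and their part in the result was not tested.

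Cluster 7, unnamed and led by the neutrophil granule genes Camp, Ngp and Ltf, had 272 and 124 cells, mitochondrial shares of 1.87% and 1.52% and nuclear shares of 0.971% and 0.994%. Its median depth was 2737 and 7497.5 UMIs, its mitochondrial UMIs per cell were 76.7 and 132, and its microglia markers stood at 0.397 and 0.141 of the microglia-like level; their part in the result was not tested. Dendritic cell-like cells, 176 and 89 in number, had mitochondrial shares of 3.53% and 4.76% and a log2 ratio of 0.21 for nuclear subunits, with a median depth of 3600.5 and 8286 UMIs and microglia markers at 0.796 and 0.652 of the microglia-like level. Erythroid cell-like barcodes, 164 and 88 in number, had mitochondrial shares of 2.21% and 3.74% and nuclear shares of 0.744% and 0.857%, and microglia markers stood at 0.780 and 0.853 of the microglia-like level in them.

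Cells of cluster 4, unnamed and led by Kcnq1ot1 and Lrmda, had a median of 1110 and 1267 UMIs and the highest mitochondrial shares, 5.36% and 7.83%. Their nuclear subunits made up 0.615% and 0.574%, so that mitochondrial UMIs per nuclear UMI reached 8.72 and 13.6. Malat1 was also highest there, at 17561 and 12414 CPM.

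**Figure D3:**
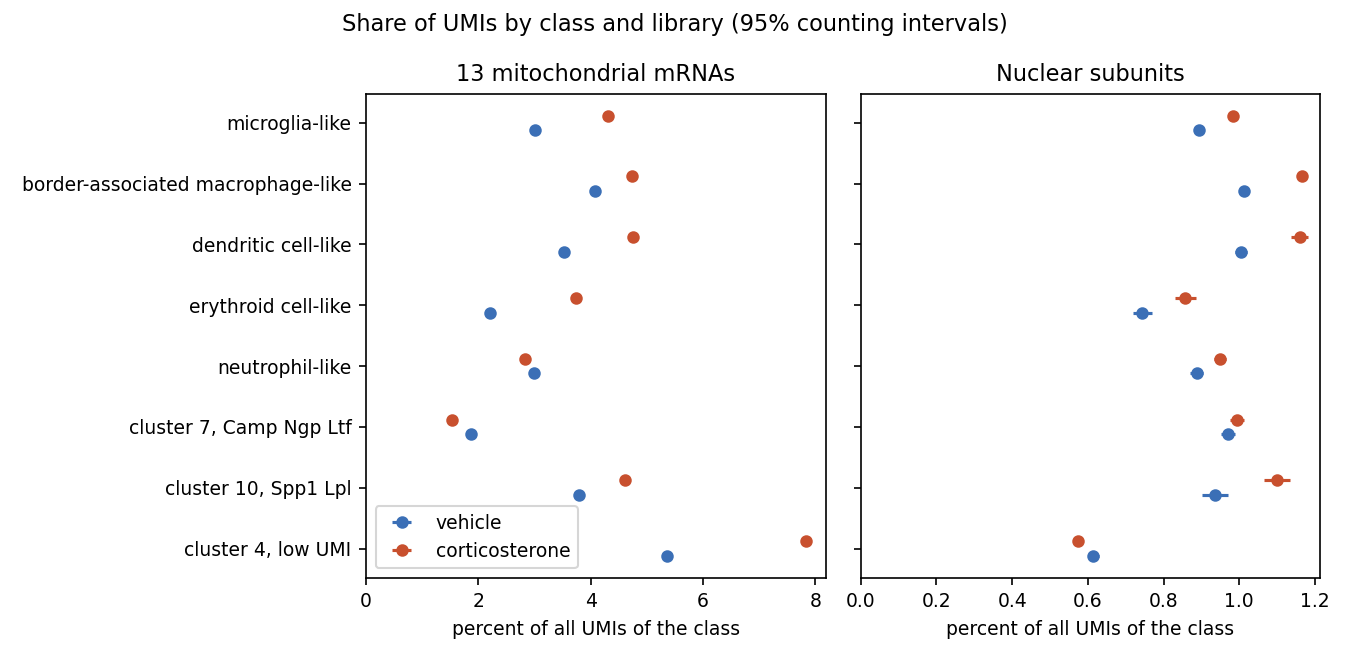
Share of UMIs in the 13 mitochondrial mRNAs (left) and in nuclear subunits (right) for each class and library, with 95% counting intervals. The corticosterone point is to the right for mitochondrial mRNAs except in neutrophil-like cells and cluster 7, and to the right for nuclear subunits except in cluster 4.

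The make-up of the mitochondrial mRNA pool also differed between the libraries, and mt-Nd2 and mt-Nd3 took a smaller share of it with corticosterone in all 8 classes shown. mt-Nd3 made up 2.91% of mitochondrial mRNA UMIs with vehicle and 1.96% with corticosterone in microglia-like cells, 2.51% and 1.72% in border-associated macrophage-like cells, and 2.46% and 1.68% in neutrophil-like cells. mt-Nd2 made up 4.11% and 3.03%, 3.54% and 2.76%, and 3.68% and 2.76% in the same classes. For both genes the counting intervals were apart in 8 of 8 classes. The shares of mt-Atp8, mt-Nd4l and mt-Nd5 were also lower in 8 of 8 classes, with counting intervals apart in 1, 3 and 6 of them. Those of mt-Co3 and mt-Nd4 were lower in 7. The shares of mt-Atp6 and mt-Co1 were higher with corticosterone in 8 of 8 classes, and those of mt-Co2 and mt-Cytb in 7. The shift in make-up was therefore present also in the classes where the total mitochondrial share was lower, and treatment and library cannot be told apart for it. All 8 classes come from the same 2 libraries and are not cleanly apart in RNA, so they are not independent repeats.

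**Figure D4:**
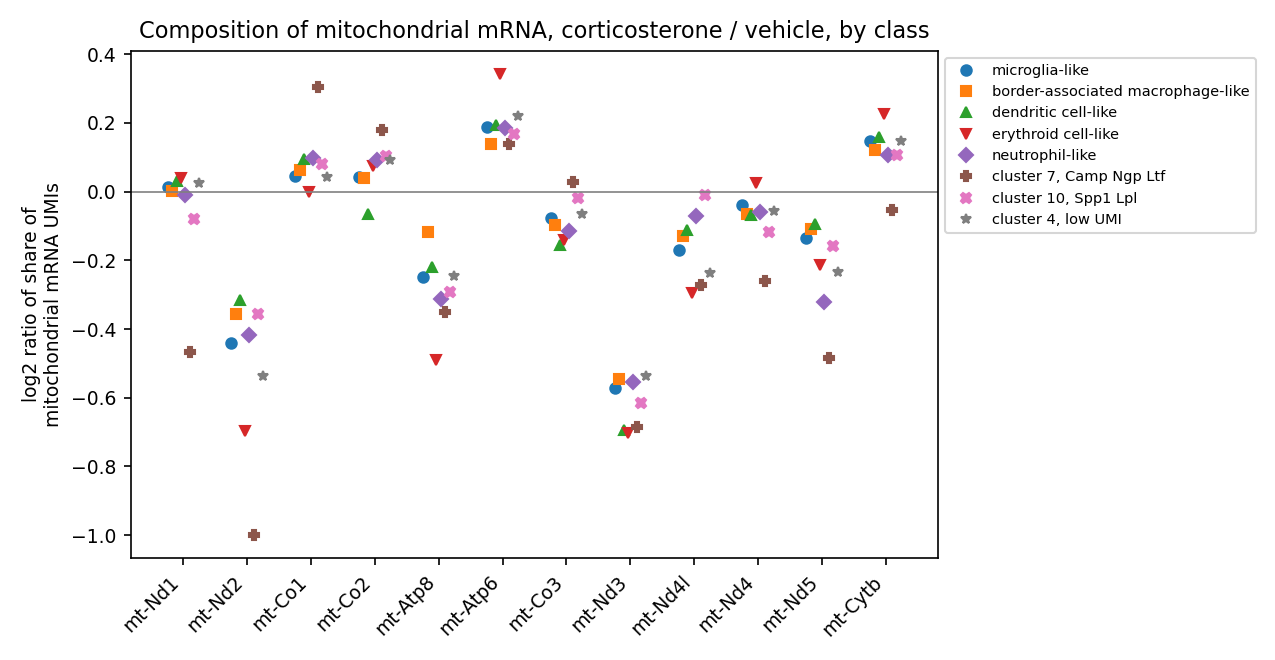
Log2 ratio of the share each mitochondrial mRNA takes of all mitochondrial mRNA UMIs, corticosterone over vehicle, 1 point per class (mt-Nd6 is left out as sparse). mt-Nd2, mt-Nd3, mt-Atp8, mt-Nd4l and mt-Nd5 lie below 0 in all 8 classes, and mt-Atp6 and mt-Co1 lie above 0 in all 8.

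The higher mitochondrial share was seen at every depth of cell. In microglia-like cells with 3000 to 5000 UMIs it was 2.80% with vehicle and 4.12% with corticosterone, and with 8000 or more UMIs it was 3.66% and 4.60%. The gap was widest between 500 and 1500 UMIs, at 2.52% and 6.71%, where 1045 and 327 cells were found. Nuclear subunit mRNA was compared between the ends of the range of mitochondrial share within a library. As a share of non-mitochondrial UMIs, nuclear subunits made up 0.888% in the lowest quartile of mitochondrial share and 0.974% in the highest with vehicle, and 0.969% and 1.07% with corticosterone. With vehicle the second quartile, at 0.882%, was no higher than the lowest. Ribosomal protein mRNA was also higher in the highest than in the lowest quartile, at 4.78% against 4.16% with vehicle and 5.81% against 4.75% with corticosterone, and the lowest vehicle quartile had the lowest depth, with a median of 2242 UMIs.

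**Figure D5:**
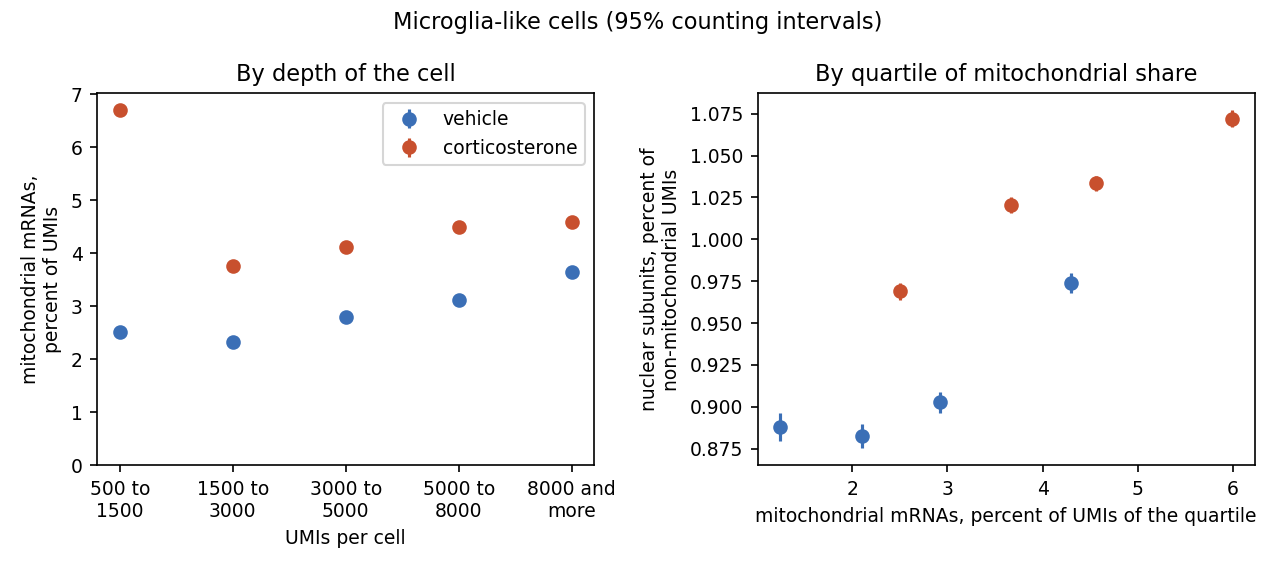
Microglia-like cells by depth (left, mitochondrial mRNAs as percent of UMIs) and by quartile of mitochondrial share (right, nuclear subunits as percent of non-mitochondrial UMIs; the axis does not start at 0), with 95% counting intervals. The corticosterone points lie above the vehicle points in all 5 depth bands.

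Promoters of the nuclear members were compared for letters bound by known regulators of respiratory genes, in windows from 250 bases before to 50 bases after the start (RefSeq, GRCm38.p6), which were found for 68 of 84 subunit genes. The core of the NRF1 site, searched on both strands, was in 17 of the 68 subunit promoters, in 13.6% of those of genes at 20 CPM or more, and in 7.17% of those of all protein-coding genes. The ETS core CCGGAAG was also in 17 of the 68, in 24.3% and in 12.9%. The YY1 core was in 5.88%, 2.46% and 1.06%. Subunits with the NRF1 letters had a median log2 ratio of 0.13 (16 genes past the filter) and those without had 0.09 (47 genes). With a stricter form of the NRF1 core these medians were 0.09 (5 genes) and 0.10 (58 genes), with the ETS core 0.09 and 0.10, and with the YY1 core 0.04 (4 genes) and 0.10 (59 genes), so no motif is read as setting members apart. Both examples below are the 100 bases before the start, with matches in capitals; Sdhd holds NRF1 and ETS letters, and Ndufa11, an accessory subunit of complex I, holds NRF1 letters.
Ndufa11, chr17:56717662-56717761, + strand: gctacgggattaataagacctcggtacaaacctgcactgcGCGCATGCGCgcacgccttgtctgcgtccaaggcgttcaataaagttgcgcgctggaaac
Sdhd, chr9:50603850-50603949, - strand: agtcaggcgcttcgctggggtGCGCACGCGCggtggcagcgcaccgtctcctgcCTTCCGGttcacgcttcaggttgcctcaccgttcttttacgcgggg
A match describes letters in a window and not binding.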

How the data were processed

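The deposited values are raw UMI counts per gene and cell, in whole numbers. Per the submitters' processing notes, bcl2fastq 2.19 and genome build GRCm38 were used; the aligner and annotation are not given in the sources used here. File names use other words for the groups than the labels; each file was assigned through its sample record. Cells with at least 500 UMIs, 300 genes and at most 20% mitochondrial UMIs were kept, and clustered with scanpy 1.11.5 (Leiden, resolution 0.5) without members or other mitochondrial genes. A cluster was named from at least 3 markers enriched 2-fold; clusters without such a class were microglia-like where microglia markers stood at 0.5 or more of the level over all cells. A cluster stayed unnamed where another class had more markers among its 10 leading genes (clusters 7 and 10), or where its median depth was low and none of its own were there (cluster 4). Scrublet marked 0 cells in each library and was taken not to have worked, so doublets were not removed. UMIs were summed per library and class and given as CPM; log2 ratios carry exact conditional binomial intervals and shares exact binomial ones. No test between groups was possible. edgeR 4.0.16 and DESeq2 1.42.0 gave scaling factors only. Named are all mitochondrial mRNAs, the 2 highest and 2 lowest nuclear members per complex, the isoform pairs, and each list's extremes, of which 1 is not reported here; core and complex V subunits named besides these were chosen after their values were seen. Mitochondrial mRNAs are summarised over all 13, although mt-Nd6 is below the 20 CPM filter. The scripts for sums were tested on simulated data. Members and lists were chosen with earlier results of these data known.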

Additional observations from a re-analysis of the deposited data

Results flagged for a closer look

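The mitochondrial mRNA share of neutrophil-like cells had a log2 ratio of -0.081, opposite to the 0.52 of microglia-like cells. In cluster 7, led by Camp, Ngp and Ltf, it was -0.30. The nuclear subunit share of the low-UMI cluster 4 had a log2 ratio of -0.0998, opposite to the 0.14 of microglia-like cells. None of these differences between classes was tested. Barcodes left out for more than 20% mitochondrial UMIs made up 1.07% (194 of 18077) with corticosterone and 0.342% (36 of 10536) with vehicle. With no limit, 173 of the 194 and 8 of the 36 fell into the low-UMI cluster.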

How the results depend on the processing

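No paired analysis was possible because each group has 1 library, so no replicate could be left out either. For 47 named members 18 alternatives, 5 of them added after the data had been seen, gave 752 values, of which 54 had the opposite sign, over 29 members. Of these 18 belong to 4 members whose counting interval included 0 in the values reported: Ndufb4 (-0.09 to 0.08 over its alternatives), Uqcr10 (-0.33 to 0.59), Uqcrq (-0.25 to 0.11) and Cox6c (-0.51 to 0.08). The other 36 are these. With TMM factors mt-Nd3 was 0.041, Sdhc 0.023 and Cox7c 0.044; with DESeq2 factors they were 0.059, 0.042 and 0.062; with equal cell weights mt-Nd3 was 0.0091. The remaining 29 arose within single microglia-like clusters, where the smaller side holds 263 to 293 cells and few UMIs per gene; the cause was not tested. In cluster 0 alone these were Ndufb8 -0.063, Sdha -0.095, Uqcrc2 -0.011, Cox6b1 -0.041, Cox7a2 -0.16, Cox8a -0.11, Atp5g2 -0.093, Atp5g3 -0.28. In cluster 1 alone these were Ndufa2 0.013, Ndufa5 0.072, Cox6b1 -0.23, Cox7b -0.024, Cox8a -0.015, Atp5g2 -0.050, Ndufaf7 -0.14, Sdhaf1 0.18. In cluster 2 alone these were mt-Nd2 -0.11, mt-Atp8 -0.049, Sdha -0.021, Sdhb -0.046, Cox4i1 -0.15, Cox6a1 -0.020, Cox7b -0.15, Atp5g2 -0.037, Atp5k 0.039, Atp5md 0.31, Ndufaf3 -0.67, Ndufaf7 -0.075, Sdhaf4 0.65. The nuclear median was 0.20 with TMM and 0.22 with DESeq2 factors (14 and 16 at least 25% higher), -0.0086 in cluster 0 (5 at least 20% lower) and 0.011 in cluster 1 (3 higher, 1 lower); cluster 2 had 21 higher and 3 lower, and with no filter 1 was lower. Shares of all genes past these folds are not given for these settings, so the nuclear counts are not read as a result. The mitochondrial median was 0.57 with equal cell weights. The log2 ratios of the mitochondrial share and of mitochondrial per nuclear UMIs stayed positive: 0.51 and 0.37 with no mitochondrial limit, 0.51 and 0.38 with at least 1500 UMIs, 0.41 and 0.30 over all cells, 0.51 and 0.38 without the highest doublet scores, 0.45 and 0.42 in cluster 0, 0.38 and 0.33 in cluster 1, 0.44 and 0.33 in cluster 2, and 0.56 and 0.44 in cells of 3000 to 5000 UMIs; the share was 0.53 with members among the clustering genes. Changes of the median of all genes were to 0.09 (TMM), 0.11 (DESeq2), 0.02 when scaled to non-mitochondrial UMIs and -0.02 with equal cell weights.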

Other observations

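Other mitochondrial gene lists were read in the same way in microglia-like cells, against 14.8% of all genes at least 25% higher and 13.7% at least 20% lower. Of 18 tricarboxylic acid cycle genes past the filter 17 were higher (94.4%) and 5 by at least 25% (27.8%), with a median log2 ratio of 0.21. Malate dehydrogenase Mdh2 was highest at 0.51 and Idh3g lowest at -0.01. Of 73 mitochondrial ribosomal protein genes 59 were higher (80.8%) and 12 by at least 25% (16.4%). Their median was 0.14, with Mrpl28 at 0.76 and Mrps11 at -0.26. Protein import had a median of 0.16, with 3 of 20 (15.0%) at least 25% higher. Tomm40, the pore of the outer membrane, was at 0.46 and Timm44 at -0.10. For mitochondrial ribosomal and import genes the shares at least 25% higher were close to that of all genes and are not read as a result. Among electron carriers and coenzyme Q genes the median was 0.07, with cytochrome c (Cycs) at 0.46 and Etfb at -0.18. Assembly factors outside the symbol rule had a median of 0.05 (Cox16 0.57, Pet100 -0.32). Cytosolic ribosomal proteins had the highest median of the lists, 0.23, with 28 of 84 at least 25% higher (Rps2 0.80, Rps21 -0.18).

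Genes that act on mitochondrial DNA and RNA were divided in direction much as all genes were. Of 15 past the filter 7 were higher and 8 lower, beside 3306 higher and 3300 lower among all genes. Their median was -0.04. Pnpt1, an RNA-processing exonuclease, was highest at 0.75, and Twnk, the mitochondrial DNA helicase, was lowest at -0.38. Biogenesis regulators had a median of -0.05 (Esrra 0.38, Ppard -0.44), and Ppargc1a had 1 and 2 UMIs. Of 11 genes that regulate complex V, carry metabolites or uncouple, 7 were higher and 4 lower, with a median of 0.17. At least 25% higher were 3, or 27.3%, beside 14.8% of all genes, and the ATP carrier Slc25a5 was lowest at -0.30. In the list of oxidant defence and unfolded protein response 11 were higher and 4 lower, with a median of 0.08. Of these 15 genes 5, or 33.3%, were at least 25% higher and 2 were at least 20% lower, beside 14.8% and 13.7% of all genes. Txn2 stood at 0.50 and Ddit3 at -0.70. Of 9 dissociation genes, which enzyme digestion can induce, 3 were higher and 6 lower (Dusp1 0.46, Fosb -0.86), beside the near-even division of all genes.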
